A study of Mus musculus with 2 samples.

Results

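The genes of the Mir1, Mir133 and Mir206 muscle loci were chosen by name and not by a rule on their levels, with earlier results of these data known. They are Mir1a-1, Mir1a-2, Mir1b, Mir133a-1, Mir133a-2, Mir133b and Mir206, 7 of the 2202 miRNA genes of the deposited count tables. They were paired by locus as Mir206 with Mir133b, Mir1a-1 with Mir133a-2, and Mir1a-2 with Mir133a-1 and Mir1b. The data are microRNA-seq libraries, which sequence short RNA, from the gastrocnemius, the large calf muscle, of male B6CASTF1/J mice aged 10 days, hybrids of the C57BL/6J and CAST/EiJ strains. The only group holds 2 libraries, labelled biological replicates 1 and 2, from animals numbered apart under 1 shared donor entry. The labels name no treatment or engineered allele, so conditions could not be compared, and differences between the libraries describe these 2 samples alone. The gastrocnemius is whole tissue with vessels, nerve and blood cells beside its fibres, and in such bulk samples fewer cells of a type and less RNA per cell cannot be told apart.

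Each of these loci is known to encode a miRNA of the miR-1 and miR-206 family together with one of the miR-133 family, as a pair within one precursor transcript. The pairs are switched on by the myogenic transcription factors MyoD, myogenin and MEF2. In cultured mouse myoblasts, miR-1 and miR-206 promote differentiation, whereas miR-133 was first described as promoting proliferation. The loci of Mir1a and Mir133a are active in both heart and skeletal muscle, and Mir206 is known for its restriction to skeletal muscle, its repression of Pax7 in satellite cells and its part in reinnervation after nerve injury. The 5′ part of a mature miRNA, bases 2 to 8, is the seed that pairs with target mRNAs.

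The RefSeq table (GRCm38.p6) held 5 mature sequences for 3 of the 7 genes and the hairpins of 2. They are shown because a count in these tables requires that a read match 1 place only, and these letters decide where it can match. They are written 5′ to 3′ with the seed in capitals, from the plus strand at chr1:20679017-20679039 (miR-206-5p), chr1:20679055-20679076 (miR-206-3p), chr1:20682797-20682818 (miR-133b-5p), chr1:20682834-20682855 (miR-133b-3p) and chr2:180389057-180389079 (miR-1a-1-5p).
mmu-miR-206-3p: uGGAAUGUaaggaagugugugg
mmu-miR-206-5p: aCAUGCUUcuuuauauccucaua
mmu-miR-1a-1-5p: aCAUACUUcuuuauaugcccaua
mmu-miR-133b-3p: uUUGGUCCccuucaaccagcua
mmu-miR-133b-5p: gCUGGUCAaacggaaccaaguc

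The 5p arms of Mir1a-1 and Mir206 were alike. Of 23 positions, counted from 1 at the 5′ end, 20 were identical, and miR-206-5p differed from miR-1a-1-5p by A5G, G17C and C19U. The first of these lies in the seed, so the 5p arms carry different seeds. Seeds could be compared only among sequences of this table, which has mature sequences for 3 of the 7 genes. Seed sharing with the 3p arms of the Mir1a and Mir133a genes was thus not searched among mature sequences. In the hairpin search given below, the miR-206-3p seed also lay in the Mir1a-1 hairpin, and the miR-133b-3p seed in both Mir133a hairpins. The known shared seed of miR-1 and miR-206 is background here. Within the table, the miR-206-3p seed GGAAUGU also occurred in miR-6349 and miR-6382, whose genes had 0 counts in both libraries, and the seeds of the other 4 sequences occurred in no other mature miRNA. In 22 positions, miR-206-3p and miR-133b-3p shared 4 bases, so the members of this pair are separate sequences made from 1 locus.

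The hairpins of that pair are shown for the place of their arms, which are in capitals. The hairpin of Mir206 has 73 bases, with arms at bases 8 to 30 and 46 to 67. The hairpin of Mir133b has 119 bases, with arms at bases 29 to 50 and 66 to 87. Both have 15 bases between the arms.
Mir206: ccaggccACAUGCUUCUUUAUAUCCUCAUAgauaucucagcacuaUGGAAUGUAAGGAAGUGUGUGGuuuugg
Mir133b: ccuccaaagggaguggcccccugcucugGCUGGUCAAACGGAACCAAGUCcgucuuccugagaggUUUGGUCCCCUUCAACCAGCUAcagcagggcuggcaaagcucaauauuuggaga

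Among the 7 genes, Mir206 held nearly all counts. Replicate 2 held 5062714 counts assigned to miRNA genes, 39.3% of its 12889382 reads, and replicate 1 held 3999172, 41.3% of 9678334. Levels are counts per 1000000 assigned counts (CPM), and they were not divided by length. The printed mature sequences have 22 or 23 bases, and the tables give no read lengths. The 7 genes took 8.76% of the assigned counts in replicate 2 and 10.1% in replicate 1, a mean of 9.42% ± 0.93 (SD, n = 2). Mir206 had 442713 counts in replicate 2 and 402312 in replicate 1, which is 561 and 689 counts for each count of the 6 other genes together. Those 6 summed to 156 CPM in replicate 2 and 146 CPM in replicate 1, a total of 151 ± 6.9 CPM (SD, n = 2).

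Mir206 (chromosome 1, 20679010 to 20679082, plus strand, mm10) lies in an exon of the lincRNA Gm28653, and its level was 87446 CPM in replicate 2 and 100599 CPM in replicate 1, a mean of 94022 ± 9301 CPM (SD, n = 2). By level over both libraries, measured as the distance of log2(CPM + 1), its nearest genes were Mir378a at 0.10 and Mir127 at 0.13. With 2 libraries this likeness describes level alone. Mir206 had no read on the opposite strand in either library, and the column counted without regard to strand held the same 442713 and 402312 reads.

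Mir133b (chromosome 1, 20682769 to 20682887, plus strand), the partner of Mir206, lies 3686 bases downstream in an exon of the same lincRNA. It had 173 counts in replicate 2 and 174 in replicate 1, or 34.2 CPM (exact 95% interval 29.3 to 39.7) and 43.5 CPM (37.3 to 50.5), with a mean of 38.8 ± 6.60 CPM. Thus 2559 counts of Mir206 stood against each count of Mir133b in replicate 2, and 2312 in replicate 1. The ratio in replicate 2 was 1.11 times that in replicate 1, with an exact interval of 0.892 to 1.37 that spans 1, so a shift of the pair's balance between the libraries was not detectable at this depth.

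**Figure D1:**
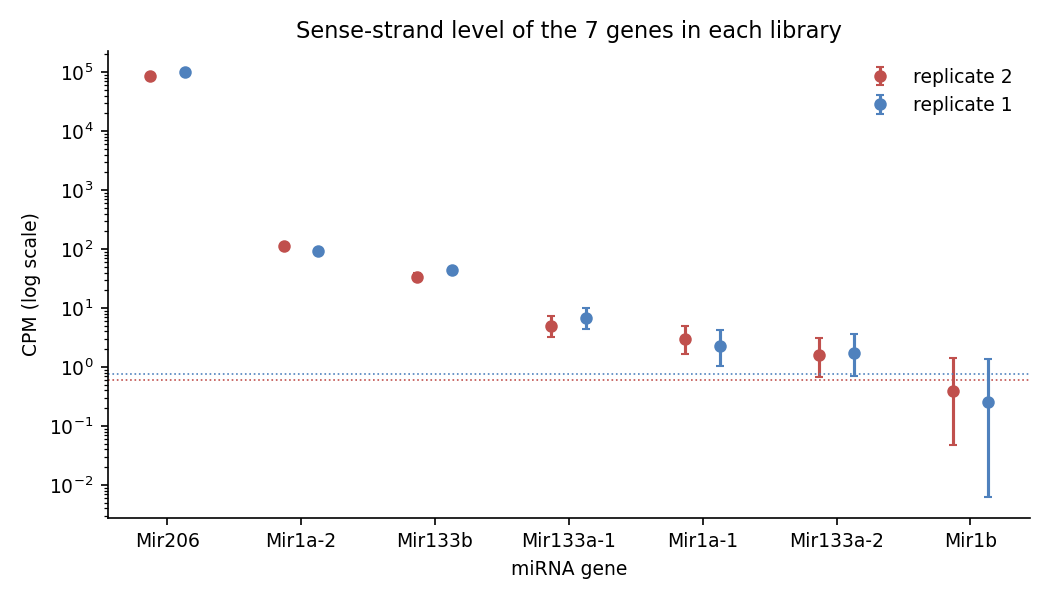
Levels of the 7 genes in CPM on a log axis, with replicate 2 left of replicate 1, exact 95% counting intervals as bars and dotted lines at the level of 3 counts in each library. Mir206 stands at 87446 and 100599 CPM, all other genes lie at or below 112 CPM, and both points of Mir1b lie below the dotted lines.

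The genes of the other pairs were counted at low levels, and Mir1a-2 led them. Mir1a-2 (chromosome 18, 10785481 to 10785552, minus strand) is in an intron of the non-coding gene Mir133a-1hg, within an intron of Mib1 on the opposite strand. It had 566 counts in replicate 2 and 366 in replicate 1, or 112 CPM (103 to 121) and 91.5 CPM (82.4 to 101). The nearest genes in level were Mir132, at a distance of 0.01 on the log2(CPM + 1) scale over 2 libraries, and Mir323, at 0.14. Mir133a-1 (chromosome 18, 10782909 to 10782976, minus strand) lies 2504 bases further along the same host gene and had 25 counts in replicate 2 and 27 in replicate 1, or 4.94 CPM (3.20 to 7.29) and 6.75 CPM (4.45 to 9.82). There were 22.6 counts of Mir1a-2 for each of Mir133a-1 in replicate 2 and 13.6 in replicate 1. The ratio of these ratios was 1.67 (0.917 to 3.05), an interval that spans 1.

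Mir1a-1 (chromosome 2, 180389048 to 180389124, plus strand) and Mir133a-2 (chromosome 2, 180398379 to 180398482, plus strand) lie 9254 bases apart and overlap no other annotated gene. Mir1a-1 had 15 counts in replicate 2 and 9 in replicate 1, or 2.96 and 2.25 CPM. Mir133a-2 had 8 and 7 counts, or 1.58 and 1.75 CPM. The whole locus held 23 counts in replicate 2 and 16 in replicate 1, and Mir1a-1 took 65.22% (exact interval 42.73 to 83.62) and 56.25% (29.88 to 80.25) of them. Both intervals include equal shares of the pair.

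In each of the 3 loci the Mir206 or Mir1a gene thus had a higher count than its Mir133 partner in both libraries, but with widely different ratios. For Mir1a-1 this lead was within counting error. Mir1b, in the locus of Mir1a-2, had fewer counts than Mir133a-1 in both libraries. Only reads that match 1 place are counted. The longest stretch shared with another hairpin had 28 bases for the Mir1a genes, 31 for the Mir133a genes, 21 for Mir133b and 13 for Mir206. These ratios, and the sums and order that follow, therefore compare such counts and need not hold for whole miRNA levels. By sum, the 3 Mir133 genes had 206 counts in replicate 2 and 208 in replicate 1, or 46.4 ± 8.0 CPM, and the 2 Mir1a genes had 581 and 375 counts, or 104 ± 15 CPM. The order of the 7 genes was the same in both libraries: Mir206, Mir1a-2, Mir133b, Mir133a-1, Mir1a-1, Mir133a-2 and Mir1b. Neighbours in that order did not always differ beyond counting error. The intervals of Mir1a-1 (1.66 to 4.89 CPM in replicate 2 and 1.03 to 4.27 CPM in replicate 1) overlapped those of Mir133a-2 (0.682 to 3.11 and 0.704 to 3.61 CPM). In replicate 2 the interval of Mir1a-1 also overlapped that of Mir133a-1, and the intervals of Mir133a-2 and Mir1b overlapped in both libraries. The first 4 genes of the order were separated from each other by their intervals in both libraries.

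**Figure D2:**
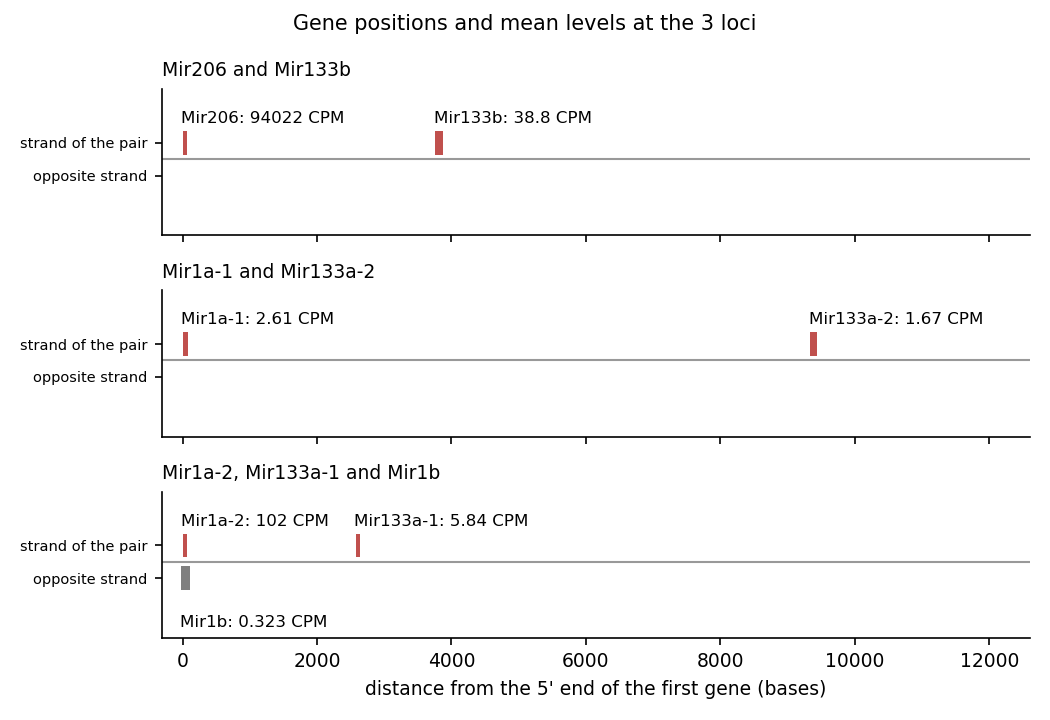
Positions of the genes at the 3 loci as distance in bases from the 5′ end of the first gene, drawn along its strand, with the mean CPM of the 2 libraries beside each gene. Mir206, at 94022 CPM, and Mir133b, at 38.8 CPM, lie 3686 bases apart, and Mir1b lies on the strand opposite to Mir1a-2.

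Mir1b (chromosome 18, 10785446 to 10785567, plus strand, in an intron of Mib1) covers all 72 bases of Mir1a-2 on the other strand, and 1 or 2 reads alone had its direction. It had 2 counts in replicate 2 and 1 in replicate 1, at or under the limit of 3 counts that a count of 0 allows (0.593 and 0.750 CPM). On the strand opposite to Mir1b there were 567 reads in replicate 2 and 366 in replicate 1, against 566 and 366 sense reads at Mir1a-2. Nearly all reads of this stretch thus had the direction of Mir1a-2. In the column that ignores strand, reads in overlapping genes are counted for neither. Mir1a-2 had 0 reads there in both libraries, Mir1b had 1 in replicate 2 and 0 in replicate 1, and the other 5 genes had the same counts as on their own strand. Those 5 genes had 0 reads on the opposite strand in both libraries.

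**Figure D3:**
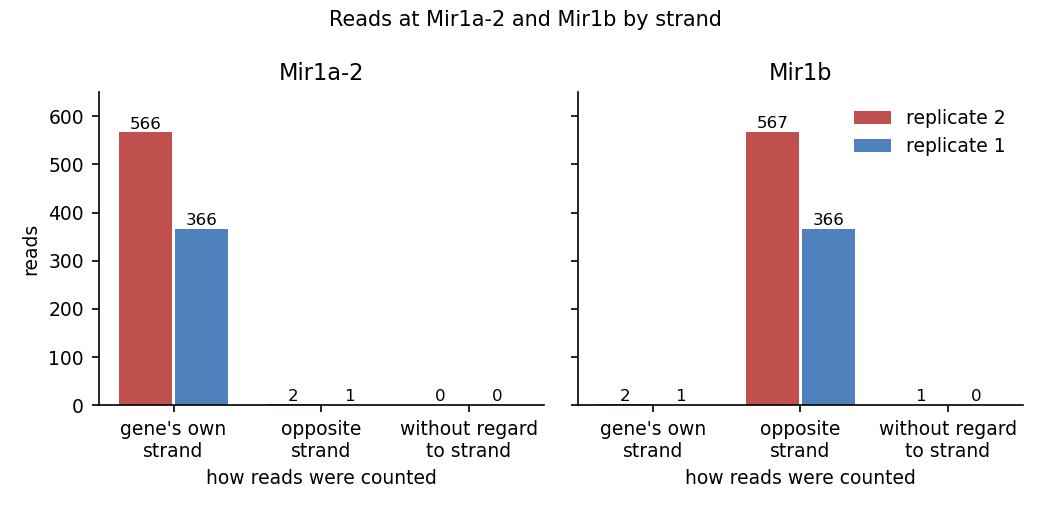
Reads at Mir1a-2 and Mir1b by the strand on which they were counted, with replicate 2 left of replicate 1 in each pair of bars. The sense reads of Mir1a-2 (566 and 366) appear as opposite-strand reads of Mir1b (567 and 366), and the count without regard to strand holds 0 and 0 for Mir1a-2.

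What the low counts can hold depends on the sequences, since reads that match several places were counted for no gene. Such reads made up 48.0% of replicate 2 (6186505) and 47.0% of replicate 1 (4548703), which is 13.9 and 11.3 times the counts of all 7 genes. The tables do not say from which miRNAs they came. Hairpins of all 2202 annotated miRNA genes were searched for shared stretches. Mir1a-1 shared 28 bases with Mir1a-2, at bases 45 to 72 of its hairpin, whereas its 5p arm lies at bases 10 to 32. Mir133a-2 shared 31 bases with Mir133a-1. Mir133b shared 21 bases with both Mir133a genes, at bases 66 to 86, which is the 3p arm printed above without its last base. Outside these partners, the longest stretch of any of these 5 genes with another hairpin had 16 bases.

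Mir206 and Mir1b had no such copy. The longest stretch that Mir206 shared with any hairpin had 13 bases, a length found with both Mir1a-1 and Mir1a-2. The stretch shared with Mir1a-1 lies at bases 43 to 55 and covers the first 10 bases of miR-206-3p, seed included. Over the whole hairpin, 57 of 80 aligned columns of Mir1a-1 and Mir206 were identical (71.2%), and 57 of 75 of Mir1a-2 and Mir206 (76.0%). For Mir1a-1 and Mir1a-2, 61 of 77 were identical (79.2%). Each of the 5 printed mature sequences occurred whole in 1 hairpin, its own. After removal of a single base at the 3′ end, miR-133b-3p occurred in 3 hairpins, Mir133a-1, Mir133a-2 and Mir133b, and after removal of 7 bases also in Mir133c. The other 4 sequences stayed with 1 hairpin down to a loss of 8 bases. A Mir133b 3p read that lacks its last base therefore cannot be told from a read of the Mir133a genes, while reads of either arm of miR-206 had 1 annotated hairpin at all lengths searched. Reads wholly within the 28 bases shared by the Mir1a genes match both of those hairpins. The same holds for the 31 bases shared by the Mir133a genes, and such reads were counted for no gene. How many reads of each gene were left out was not tested. The levels of Mir1a-1, Mir1a-2, Mir133a-1, Mir133a-2 and Mir133b are uncertain for this reason and may be understated.

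**Figure D4:**
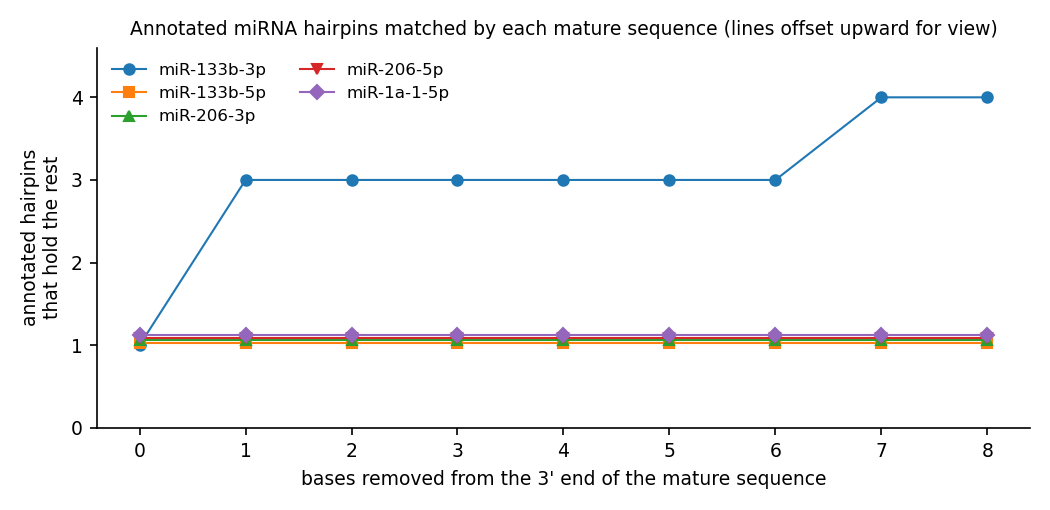
Number of annotated miRNA hairpins, of 2202, that hold each mature sequence after removal of 0 to 8 bases from its 3′ end, with lines shifted slightly upward so that they can be seen. The line of miR-133b-3p goes to 3 hairpins after 1 base and 4 after 7, and the other 4 lines stay at 1.

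Low counts were common among genes with such copies and also, to a lesser extent, among genes without them. Of the 1084 miRNA genes that shared at least 20 bases with another, 78 (7.20%) had at least 10 counts in both libraries, against 235 (21.02%) of the 1118 without such a stretch. The 5 genes with copies here are among the 1084, and Mir1a-2, Mir133a-1 and Mir133b are among the 78. That is a larger share of these 5 genes than the 7.20% of the 1084. The 1084 genes held 23.5% of the assigned counts in replicate 2 and 23.8% in replicate 1, and the 1118 held 76.5% and 76.2%. These groups also differ in which miRNAs they hold, so this is a description of the tables.

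Between the libraries, Mir206 was lower and Mir1a-2 higher in replicate 2 beyond counting error, and the other members tested did not pass. Counts were compared with a two-sided exact binomial test, given library totals scaled by TMM (a trimmed mean that sets most genes level), with Benjamini-Hochberg adjustment over the 332 genes whose counts averaged 10 or more. Over all genes, 39.5% were called, 27.1% as higher and 12.3% as lower in replicate 2, a split that plain library totals turned to 62 higher and 79 lower. Of the 7 members, 5 were tested, with 1 called higher and 1 lower, a share near that background. Their median log2 ratio was -0.13, and that of all genes tested was 0.02. Mir133a-2 and Mir1b had too few counts to be tested.

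After TMM scaling, Mir206 had a log2 ratio of -0.13 (exact interval -0.14 to -0.12), or 0.913 times replicate 1 in replicate 2. Its exact binomial adjusted p was too small to be computed and is listed as 0. With plain library totals the log2 ratio of Mir206 was -0.20, outside that interval, which does not cover the choice of scaling. After TMM scaling, Mir1a-2 had a log2 ratio of 0.36 (0.17 to 0.55), 1.28-fold higher in replicate 2 (exact binomial adjusted p = 0.000842). Mir133b gave -0.28 (-0.59 to 0.03), Mir133a-1 -0.38 (-1.23 to 0.46) and Mir1a-1 0.47 (-0.82 to 1.84), and none of these passed (exact binomial adjusted p = 0.156, 0.540 and 0.679). The binomial test covers counting error only. Under edgeR's exact test for negative binomial counts, whose biological coefficient of variation of 0.140 was estimated from this same pair of libraries, neither call held (adjusted p = 1.00 for each member), and 6 of all 332 genes passed (1.81%).

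Set against Mir206 within each library, which needs no scaling, Mir1a-2 was 1.41 times (1.23 to 1.61) as high in replicate 2 as in replicate 1. The intervals of Mir133b (0.904, 0.728 to 1.12), Mir133a-1 (0.841, 0.468 to 1.51), Mir1a-1 (1.51, 0.621 to 3.93) and Mir133a-2 (1.04, 0.329 to 3.36) spanned 1.

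Of the 4 other muscle miRNA genes listed, 3 could be tested, and all 3 were called higher in replicate 2 by the exact binomial test, where 27.1% of all genes were. The call of Mir486 was lost with plain library totals, where its log2 ratio was 0.10. They are Mir499 and Mir208b, which sit in introns of the slow myosin heavy chain genes Myh7b and Myh7, Mir208a, of the cardiac myosin gene Myh6, and Mir486, of the erythroid and muscle gene Ank1. Mir499 stood at 302 CPM in replicate 2, against 192 CPM in replicate 1 (log2 ratio 0.72, 0.60 to 0.85), Mir208b at 52.7 against 34.3 CPM (0.69, 0.39 to 1.00), and Mir486 at 219 against 205 CPM (0.17, 0.04 to 0.30). These 3 passed (exact binomial adjusted p = 9.42e-30, 1.71e-05 and 0.0313, that of Mir486 0.241 with plain library totals), and none passed the negative binomial exact test (adjusted p = 0.340, 0.570 and 1.00). Mir208a, the heart marker, had 2 counts in replicate 2 and 0 in replicate 1. Relative to Mir206, Mir499 was 1.81 times (1.65 to 1.97), Mir208b 1.77 times (1.44 to 2.19) and Mir486 1.23 times (1.12 to 1.35) as high in replicate 2 as in replicate 1. The 4 genes together had 503 ± 101 CPM (SD, n = 2), so they also stood far below Mir206.

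Of the 6 markers of other cell types, the erythroid Mir451a and the hepatocyte Mir122 were higher in replicate 2 by both tests. Mir451a stood at 3901 CPM in replicate 2, against 1572 CPM in replicate 1, the erythroid Mir144 at 187 against 108 CPM, and Mir122 at 272 against 103 CPM. The endothelial Mir126a stood at 67925 CPM in replicate 2, against 55784 CPM in replicate 1, and the smooth muscle Mir143 at 29124 against 23930 CPM, while the smooth muscle Mir145a stood at 589 against 641 CPM. All but Mir145a among these 6 passed the exact binomial test as higher in replicate 2, where 27.1% of all genes did. With the negative binomial exact test, Mir451a (adjusted p = 0.000151) and Mir122 (adjusted p = 9.16e-05) passed, and Mir144 (adjusted p = 0.181), Mir126a, Mir143 and Mir145a (adjusted p = 1.00 each) did not. Mir145a passed the binomial test as lower with plain library totals only (log2 ratio -0.12). Their part in the differences of Mir206 and Mir1a-2 was not tested.

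**Figure D5:**
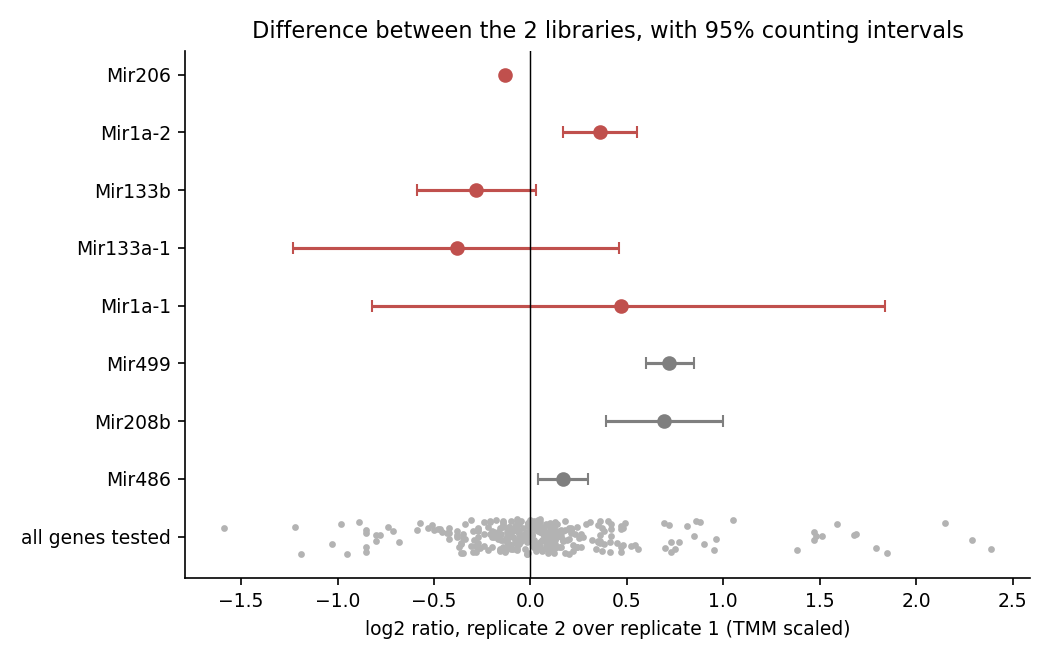
Log2 ratio of replicate 2 over replicate 1 with TMM scaling, with exact 95% counting intervals, for the 5 members tested (red) and 3 other muscle miRNA genes (grey), above all 332 genes tested. Mir206 lies at -0.13 and Mir1a-2 at 0.36, both within the bulk of all genes, and Mir499 (0.72) and Mir208b (0.69) lie further right.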

How the data were processed

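Short RNA from the gastrocnemius of 1 group of 2 samples was measured by microRNA-seq. For each library the authors deposited raw counts of reads per miRNA gene, taken without regard to strand, on the gene's strand and on the opposite strand. The assembly was mm10, the C57BL/6J genome, with GENCODE M21, per the deposited metadata text. Per the labels, the size range was below 30 (no unit named). Aligner and counter were not given in the sources used here. The sense column was used, and the 4 summary rows (60.7% of reads in replicate 2 and 58.7% in replicate 1) were left out of the totals.

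CPM, exact (Clopper-Pearson) intervals at 95%, a limit of 3 counts and an exact binomial test with TMM scaling (edgeR 4.0.16) were computed, with calls at an adjusted p under 0.05. Ratios of ratios have exact conditional intervals. The test was checked on simulated counts that had no spread between libraries beyond counting error, so the check does not cover such spread in these data. The tables give no molecular identifiers, so intervals and limits cover counting error only. The p-values of the binomial test hold no spread between libraries, and those of the negative binomial test hold the spread between these 2 samples alone. The 2 libraries differed beyond sampling noise (chi-square 85.7 per degree of freedom, 331 degrees of freedom).

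Hairpins came from the M21 transcripts and mature sequences from RefSeq. Exact matches of hairpin stretches were searched in annotated miRNA hairpins only, not in the genome. Alternatives were other scalings (DESeq2 1.42.0 size factors, plain totals), count minimums, the column without regard to strand, other denominators and a negative binomial test. All members are named, with the 4 other muscle genes, the marker genes, the nearest genes in level of Mir206 and Mir1a-2, and hairpins with a shared stretch. The members and lists were chosen with earlier results of these data known. Python 3.11.15, scipy 1.17.1, Biopython 1.88 and R 4.3.3 were used.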

Additional observations from a re-analysis of the deposited data

Results flagged for a closer look

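The opposite-strand column, which the levels do not use, held signal at Mir1b. It had 567 reads in replicate 2 and 366 in replicate 1, above the 3 that a count of 0 allows. Mir1a-2 lies there on that strand with 566 and 366 sense reads, so its level already counts nearly all of this signal. Reads matching several places, in no gene of the tables, made up 48.0% of replicate 2 and 47.0% of replicate 1.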

How the results depend on the processing

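Under each scaling and count minimum tried, Mir206 stayed called as lower and Mir1a-2 as higher in replicate 2, with log2 ratios of -0.20 and 0.29 under plain totals. Mir486 was not called under plain totals or without a minimum. The column without regard to strand gave 1 member called (Mir206), since Mir1a-2 has 0 reads there, and took the share of Mir1a-2 in its locus to 0% and that of the 7 genes to 11.5%. With all reads as the denominator the 7 genes took 3.80%. The negative binomial exact test gave 0 members called of 5 tested and 6 genes in all. Under it, 23 genes had an unadjusted p under 0.05. That test estimated its spread from the difference between these same 2 libraries, so it gives no independent check of the binomial calls. Shortened by 1 to 4 bases, or with 1 mismatch allowed, miR-133b-3p matched 3 hairpins. With 1 library left out, the share of the 7 genes was 8.76% or 10.1%, and the difference between libraries has no value. No paired analysis was possible because there is 1 group. Depth limits Mir1a-1, Mir133a-2 and Mir1b, which had at most 15 counts in a library.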
